A study of Mus musculus with 4 samples.

Results

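Open chromatin at the ends of protein-coding genes, found in every thymocyte sample of the series, was described here as 4107 regions. They were chosen by measured values: peaks of the 4 deposited ATAC-seq lists on chromosomes 1 to 19 and X that shared at least 1 bp were merged into 107607 regions, 7951 of these held a peak of all 4 lists, and 4107 of the 7951 had a midpoint within 1 kb of either end of a RefSeq protein-coding gene span. The presence of a peak in each list and the position of the region are therefore not findings. ATAC-seq marks DNA that a transposase can reach. The samples were wild-type C57BL/6J mouse thymocytes from animals of 5 to 7 weeks, sorted ex vivo and processed at once, with no treatment. The 2 DN samples were CD4-CD8- double negative T cells gated as CD25+CD44-/+, and the 2 DP samples were CD4+CD8+ double positive T cells. They are called DN 1, DN 2, DP 1 and DP 2 after the replicate numbers in the labels. Whether the replicates of a stage were different animals is not in the labels, and their spread may be only technical. All 4 samples were normal tissue without a transgene or deletion, and the enhancer-deficient lymphocytes that the series' design text mentions were not analysed here.

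Thymocytes pass from the double negative stage, where the T cell receptor beta chain is assembled, to the double positive stage, where the alpha chain is assembled and cells are selected. Promoters of genes that every cell uses are usually CpG-rich, free of a positioned nucleosome just before the start site, and bound by factors such as ETS family members, NRF1, YY1, SP/KLF proteins and the trimeric factor NF-Y, which recognises CCAAT boxes. Enhancers, in contrast, tend to be open in 1 cell type or stage.

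The promoters printed here show what the shared gene-end regions held in their DNA. For each motif, the gene whose region had the best mean rank over the 4 lists among promoters with that motif was taken, and since 443 regions tied at the best mean rank, the one with the most covered bases among those tied. A promoter with several CCAAT boxes, that of Hsp90b1, was added after its values were seen. Each sequence is the gene's own strand, 5′ to 3′, from 200 bases before to 25 bases after the RefSeq start site in GRCm38.p6, the assembly of mm10, and capitals mark matches to the motif on either strand. Slx4ip (an ETS word CCGGAAG, plus strand, chr2:136891018-136891242) and Mkks (a CCAAT box, minus strand, chr2:136891382-136891606) start on opposite strands within 1 region. Hsp90b1 (CCAAT boxes, minus strand, chr10:86705420-86705644) has 6 boxes in the full 300-base window and 3 in the bases shown. Acadm (the NRF1 word GCGCATGC, minus strand, chr3:153944619-153944843), Etaa1 (the YY1 word AAGATGGCG, minus strand, chr11:17953851-17954075), Sp4 (the SP/KLF word GGGCGG, minus strand, chr12:118301416-118301640) and Pdcd10 (the ZNF143 word ACTACAANT, minus strand, chr3:75556828-75557052) follow.
Slx4ip: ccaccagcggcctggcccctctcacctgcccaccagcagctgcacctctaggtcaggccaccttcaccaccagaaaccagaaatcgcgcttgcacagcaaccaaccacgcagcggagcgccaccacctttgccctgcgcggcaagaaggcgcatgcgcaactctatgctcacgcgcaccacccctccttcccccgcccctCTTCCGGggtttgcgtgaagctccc
Mkks: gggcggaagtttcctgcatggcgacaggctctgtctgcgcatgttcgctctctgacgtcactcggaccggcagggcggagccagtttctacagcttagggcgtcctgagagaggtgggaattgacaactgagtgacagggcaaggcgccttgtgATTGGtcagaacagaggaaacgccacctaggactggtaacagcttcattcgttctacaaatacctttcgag
Hsp90b1: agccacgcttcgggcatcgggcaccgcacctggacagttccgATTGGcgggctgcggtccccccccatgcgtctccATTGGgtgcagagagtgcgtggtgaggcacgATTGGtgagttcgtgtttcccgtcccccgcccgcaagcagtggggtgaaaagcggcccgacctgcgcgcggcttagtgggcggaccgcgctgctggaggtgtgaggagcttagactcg
Acadm: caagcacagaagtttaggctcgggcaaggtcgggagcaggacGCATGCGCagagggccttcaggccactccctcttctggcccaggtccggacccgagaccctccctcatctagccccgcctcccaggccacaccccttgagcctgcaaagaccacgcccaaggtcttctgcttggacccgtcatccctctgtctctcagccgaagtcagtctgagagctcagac
Etaa1: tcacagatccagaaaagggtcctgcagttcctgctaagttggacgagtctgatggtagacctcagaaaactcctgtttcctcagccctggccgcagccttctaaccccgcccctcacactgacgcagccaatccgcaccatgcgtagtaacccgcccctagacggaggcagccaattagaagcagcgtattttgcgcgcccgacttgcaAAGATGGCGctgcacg
Sp4: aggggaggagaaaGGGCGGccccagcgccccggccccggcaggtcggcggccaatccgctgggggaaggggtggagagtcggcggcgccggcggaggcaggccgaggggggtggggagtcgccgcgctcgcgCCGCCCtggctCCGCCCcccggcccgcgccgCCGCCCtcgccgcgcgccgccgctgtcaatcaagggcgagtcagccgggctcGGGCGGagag
Pdcd10: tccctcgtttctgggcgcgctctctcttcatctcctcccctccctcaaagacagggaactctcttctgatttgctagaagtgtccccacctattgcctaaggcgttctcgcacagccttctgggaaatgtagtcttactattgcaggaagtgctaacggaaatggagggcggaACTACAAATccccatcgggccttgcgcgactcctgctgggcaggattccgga

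The region at Mkks, which encodes a chaperonin-like protein of the basal body, and Slx4ip, which encodes a partner of the SLX4 nuclease scaffold, spanned chr2:136890751-136892400. It was 1 of the 443 regions at the smallest p-value in all lists and had the most covered bases of these. It was 1650 bp wide, and the peaks of DN 1, DN 2, DP 1 and DP 2 covered 1600, 1550, 1600 and 1550 bp of it, so the stages overlapped. The single ETS match of Slx4ip began at its start site, and the CCAAT box of Mkks lay 46 bp before its own. Sp4 encodes a zinc finger factor of the SP family; its promoter held 5 GGGCGG matches, and its region was covered over 1600, 1400, 1650 and 1450 bp. Hsp90b1 encodes the HSP90 of the endoplasmic reticulum, and its region was covered over 1300, 1000, 1250 and 1200 bp. The ZNF143 match in the promoter of Pdcd10, a gene linked to cerebral cavernous malformations, lay 27 bp before the start site, and the NRF1 match of Acadm, the medium-chain acyl-CoA dehydrogenase, 158 bp before. Each of these is a match of letters and not an observed binding site.

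The lists carried no read counts, so sequencing depth is unknown and a missing peak cannot be told apart from too few reads. They differed in length, with 38808 peaks in DN 1, 33131 in DN 2, 39718 in DP 1 and 70385 in DP 2. DN 2 was the list that set the size of the shared class. Of the gene-end regions that lacked a peak of exactly 1 list, 2041 lacked DN 2, against 243 for DN 1, 138 for DP 1 and 56 for DP 2. Without DN 2, 6148 gene-end regions were common to the remaining lists. Gene-end regions of all 4 lists made up 55.5 and 80.5% of the gene-end regions of DN 1 and DN 2, and 43.4 and 39.9% of those of DP 1 and DP 2.

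Regions held by more lists lay at a gene end more often when the lists were pooled by number. Of regions with a peak in 1 list, 3.91% were at a gene end, of those in 2 lists 18.4%, in 3 lists 31.8% and in all 4 lists 51.7%. The share also depended on which lists held the region: it was 26.4% for both DP lists and no DN list, 7.29% for both DN lists and no DP list, and 38.9% for both DP lists with DN 1, but 12 and 13.2% for both DN lists with DP 2 or DP 1. The 4107 regions took 12.8, 14.4, 12.6 and 7.07% of the peaks of DN 1, DN 2, DP 1 and DP 2 but 17.6, 18.9, 17.9 and 11.6% of the bases that the peaks covered. Within each list these peaks thus made up a larger share of covered bases than of peaks.

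Although the choice of members allowed either end of a gene, these regions lay almost entirely at starts. Of the 3394 regions whose nearest gene had its strand in the promoter table, 3296 (97.1%) were nearest to the start and 98 to the far end. The share was 89.1% over all gene-end regions, 90.3% in those of both DP lists and neither DN list, and 73.4% in those of 1 list. The midpoints lay a median of 110 bp from the gene end, and 80.9% were within 250 bp. At starts the median midpoint was 24.5 bp downstream, with quartiles at 73.5 bp upstream and 142 bp downstream.

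The profile over these starts showed where the open stretch lay. At its highest point, 90.0% of the starts were covered by a DN 1 peak and 85.8% by a DN 2 peak, both at the start site itself. The highest coverage in DP 1 was 93.5%, 100 bp downstream, and in DP 2 it was 94.1%, 50 bp downstream. At least 50% of the starts were covered over 650 bp in DN 1, 550 bp in DN 2, 700 bp in DP 1 and 750 bp in DP 2. The upstream edge of that stretch differed by 50 bp between the lists, at 350 bp in 3 of them and 300 bp in DN 2, and the downstream edge ran from 250 bp in DN 2 to 400 bp in DP 2.

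**Figure D1:**
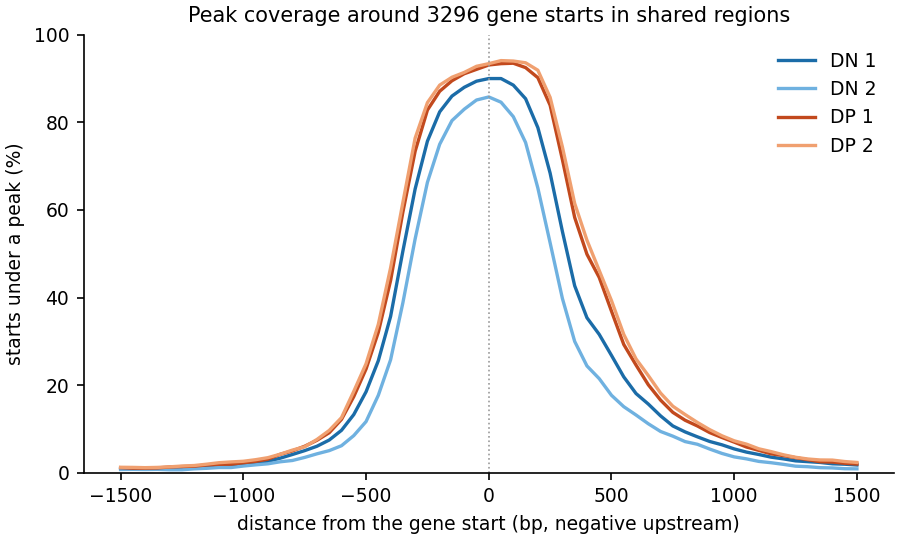
Share of the 3296 start sites covered by a peak of each list (y axis, percent) against distance from the start site (x axis, bp, with downstream to the right), 1 line per list. All 4 lines peak within 100 bp of the start, and the DP lines stay high further downstream than the DN lines.

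Some of the regions lay at the ends of 2 genes at once. Ends of 2 or more protein-coding genes lay within 1 kb of 665 regions (16.2%), of which 12 had 3 genes. The share was 13.8% over all gene-end regions and 15.8% in those of both DP lists and neither DN list, so sharing by several genes was not particular to the regions of all lists. Of the 504 pairs with both strands in the table, 412 (81.7%) were pairs of starts on opposite strands. The best ranked, after the same tie-break, included Mkks with Slx4ip and Ddias with Prcp, whose region was covered over 1500, 1350, 1550 and 1500 bp; Ddias encodes an anti-apoptotic protein and Prcp a lysosomal carboxypeptidase. Among the regions with 3 genes was chr3:96220551-96221350 at the histone genes H2ac20, H2bc21 and H2ac21, covered over 550, 450, 650 and 800 bp. Ends of non-coding genes also lay within 1 kb of 581 regions (14.1%), beside 12.5% of all gene-end regions. Long non-coding RNAs had ends at 499 regions (12.1%, beside 10.6%), microRNAs at 26 (0.633%, beside 0.675%) and tRNAs at 13 (0.317%, beside 0.277%). These shares were thus near those over all gene-end regions.

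The region width was compared between the stages, since the choice used only the presence of peaks. The median region was covered over 700 bp in DN 1 and 600 bp in DN 2, and over 800 bp in DP 1 and 850 bp in DP 2. Both DP values were above both DN values, with a mean of 650 ± 70.7 bp in DN and 825 ± 35.4 bp in DP (SD, n = 2). The difference of 175 bp had a two-sided exact permutation p of 0.33, the smallest that 2 samples against 2 can give. Shared regions away from gene ends had medians of 600, 550, 650 and 650 bp. Single regions went the same way: 2296 of the 4107 (55.9%) had more covered bases in both DP lists than in either DN list, against 47.2% of all 7951 shared regions. The opposite held for 91 (2.22%), against 4.49% of all shared regions.

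This split depended on the scale of the lists. When covered bases were divided by each list's own median over shared regions, an alternative chosen after seeing the data, 980 regions (23.9%) were higher in both DP lists and 1226 (29.9%) in both DN lists, beside 19.7 and 33.8% of all shared regions. On both scales the gene-end regions were called for DP more often, and for DN less often, than the shared regions as a whole.

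**Figure D2:**
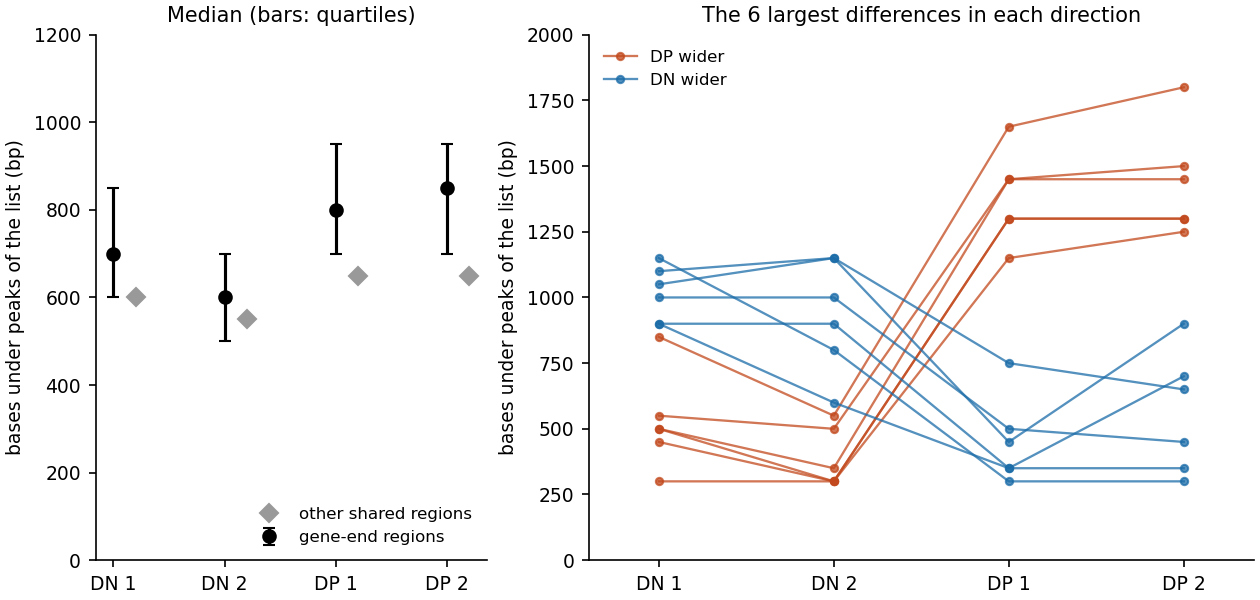
Bases covered by each list's peaks (y axes, bp) with the 4 lists along the x axes: on the left, medians of the 4107 gene-end regions (circles, bars from the lower to the upper quartile) and of the other shared regions (diamonds), and on the right, 1 line per region for the 6 largest differences in each direction, which were chosen by these values. The gene-end medians of 800 and 850 bp in DP lie above the 700 and 600 bp in DN.

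Several of the largest differences in width were towards DP. At Dazap2, which encodes a small proline-rich adaptor (chr15:100614751-100616250), the peaks covered 500 and 350 bp in DN and 1450 and 1500 bp in DP. The region between Akt1s1, an inhibitor of mTORC1, and Tbc1d17, a Rab GTPase activator, had 850 and 550 bp in DN and 1650 and 1800 bp in DP. At Cd164, a sialomucin, the values were 450 and 300 bp in DN and 1300 bp in both DP lists. The groups did not overlap at any of these, and the DP values were 1300 bp or more. Mars1, the methionyl-tRNA synthetase, had 300 bp in both DN lists and 1150 and 1250 bp in DP. Hsp90aa1, the inducible cytosolic HSP90, had 500 and 300 bp in DN and 1300 bp in both DP lists, so it stood apart from Hsp90b1, whose stages overlapped.

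Fewer regions were wider in DN. The region of Cntn1, a neuronal adhesion molecule (chr15:92050801-92051950), was covered over 1150 and 800 bp in DN and 300 bp in both DP lists. Itgb8, the integrin beta8 chain, had 1000 bp in both DN lists and 500 and 450 bp in DP. Cst7, which encodes the cysteine protease inhibitor cystatin F, had 900 and 600 bp in DN and 350 bp in both DP lists. Each of these regions thus kept a narrow peak in DP. At Ptgs2, the inducible cyclooxygenase, the peaks covered 900 bp in both DN lists and 350 and 700 bp in DP, and the region ranked at 91.7 and 95.7 in DN against 1.69 and 22.3 in DP. All these regions were picked for the size of their difference, so the values are a description.

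Ranks gave a second view. Each shared region was ranked within each list by the p-value of its best peak among the same 7951 regions, with 100 as the best and tied p-values averaged. The median gene-end region ranked at 58.9 in DN 1, 57.1 in DN 2, 66.2 in DP 1 and 82.9 in DP 2, and the other shared regions at 40.0, 44.0, 32.8 and 31.1. Peaks at gene ends thus ranked above other shared peaks in all 4 lists, and the gap was wider in both DP lists. The mean was 58.0 ± 1.27 in DN and 74.6 ± 11.8 in DP (SD, n = 2), with the same smallest exact permutation p of 0.33. The smallest p-value of 1e-12 was reached by 24.9 and 13.2% of the gene-end regions in DN and 43.3 and 51.9% in DP, beside 7.78, 3.67, 12 and 15.2% of the other shared regions. In 443 regions (10.8%) all 4 lists reached it.

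By rank, 1427 regions (34.7%) were higher in both DP lists, against 27.1% of all shared regions, and 1093 (26.6%) were higher in both DN lists, against 31.2%. Ties affect these counts, since regions at the smallest p sat at 91.7 and 95.7 in DN but at 85.9 and 82.9 in DP. Of the 1093, 550 were at the smallest p in both DP lists. With tied p-values set at the best rank of the tie, an alternative chosen after seeing the data, 1444 regions (35.2%, beside 26.8% of all shared regions) were higher in DP and 514 (12.5%, beside 23.7%) in DN. The largest rank differences towards DP included Tacc3, a spindle protein, at 2.15 and 6.21 in DN and 85.9 and 82.9 in DP. Klf10, a zinc finger factor induced by TGF-beta, had ranks of 2.15 and 17.4 in DN and 85.9 and 82.9 in DP. Snap25, a synaptic fusion protein, had 91.7 and 95.7 in DN and 11.5 and 6.56 in DP.

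The genes served by these regions were counted against the background of all genes. Of 21631 protein-coding genes, 4700 (21.7%) had at least 1 such region at an end, and 43.0% had a gene-end region of both DP lists. The lists of genes described next were counted beside these shares, with no test of any list.

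Genes for protein folding and for charging tRNAs had such a region most often among the 25 lists counted. Of 32 chaperone genes, 21 (65.6%) had one, and 31 had a region of both DP lists. Hspa8, the constitutive HSC70, was covered over 1000, 700, 1000 and 950 bp in DN 1, DN 2, DP 1 and DP 2. Hspa5, the endoplasmic reticulum HSP70 known as BiP, had 750, 600, 1000 and 800 bp. Hsph1, an HSP110 nucleotide exchange factor, had 1050, 1000, 1050 and 1050 bp. The stages overlapped for Hspa8 and Hsph1, and both DP lists were above both DN lists for Hspa5. Of 37 aminoacyl-tRNA synthetase genes, 23 (62.2%) had a region, with Tars at 750, 700, 700 and 750 bp and Iars at 650, 650, 700 and 700 bp.

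Genes of DNA replication followed, with 20 of 40 (50%). Mcm3 and Mcm4 encode subunits of the replicative helicase; Mcm3 was covered over 600, 650, 850 and 800 bp and Mcm4 over 1000, 950, 1100 and 1050 bp. Pcna, the sliding clamp, had 700, 950, 1200 and 1200 bp. In all 3 of these genes both DP lists were above both DN lists, but other replication genes differed. Rpa3, a subunit of the single-strand binding protein RPA, had 1000 and 900 bp in DN and 850 and 750 bp in DP, and Rfc3, a subunit of the clamp loader, had 850, 700, 650 and 900 bp, so its stages overlapped. All 4 peaks of Mcm3 and Mcm4 had the smallest p-value of their list.

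The machinery of gene expression had intermediate shares. Cytosolic ribosomal protein genes had a region in 38 of 86 (44.2%), spliceosome genes in 23 of 52 (44.2%), Zfp zinc finger genes in 152 of 394 (38.6%) and genes of ubiquitin E2 enzymes in 12 of 31 (38.7%). Rpl15 had 700, 700, 750 and 750 bp and Rps27a 1000, 900, 1000 and 1050 bp. The proteasome had 14 of 39 (35.9%), the respiratory chain 30 of 84 (35.7%), translation initiation 16 of 46 (34.8%) and mitochondrial ribosomal proteins 26 of 78 (33.3%). All of these lists lay above the 21.7% of all genes, and 82.1 to 94.2% of the genes of each, except the Zfp genes with 60.7%, had a region of both DP lists.

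Other general genes had fewer. RNA polymerase II subunits had a region in 2 of 13 (15.4%), although 11 of the 13 had one of both DP lists, and 6 had a peak of DN 1 and 3 of DN 2. Polr2b, a core subunit, was covered over 900, 300, 900 and 1000 bp, so the peak of DN 2 was the narrowest. Polr2a, its largest subunit, had no peak of DN 2 and was no member: its values were 300, 0, 1150 and 1000 bp. Mediator genes had 7 of 28 (25%), with 16 in DN 1 and 8 in DN 2, and chromatin factors 6 of 36 (16.7%), with 17 in DN 1 and 9 in DN 2. Among the last was Hdac2, a histone deacetylase, with 1200, 1300, 1350 and 1450 bp. Ezh2, the catalytic subunit of PRC2, had 750, 350, 750 and 750 bp.

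**Figure D3:**
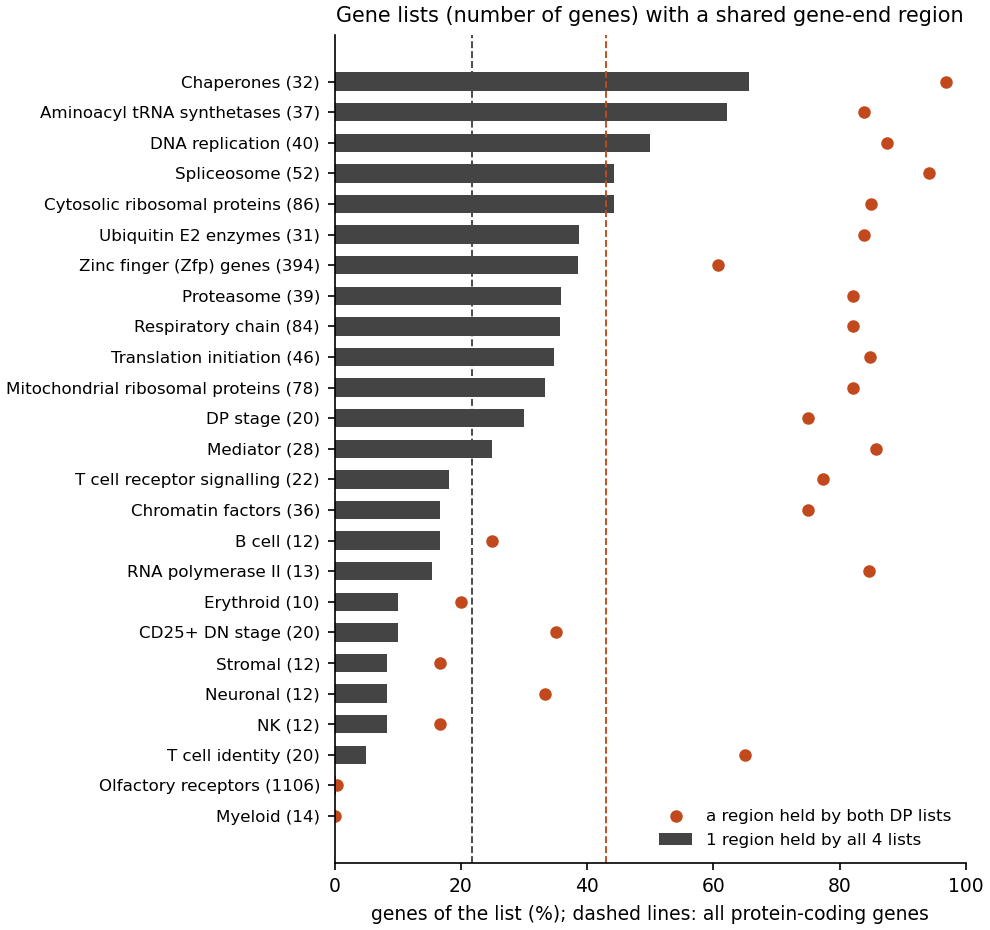
Percent of the genes of each list (x axis) with a gene-end region of all 4 lists, beside the percent with a region of both DP lists, 1 row per gene list, and the share of all 21631 genes for reference. Chaperones at 65.6% and aminoacyl-tRNA synthetases at 62.2% are highest, T cell identity genes are at 5.00%, and myeloid genes are at 0%.

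Genes that define T cells were rarely among them. Of 20 T cell identity genes, 1 (5.00%) had such a region, while 13 had a region of both DP lists, 5 one of DN 1 and 2 one of DN 2. That gene was Bcl11b, a zinc finger factor needed for T cell commitment, whose region was covered over 550 and 350 bp in DN and 700 bp in both DP lists. The T cell markers Cd3e (0, 350, 550 and 700 bp) and Lck (0, 0, 650 and 600 bp) lacked a peak of at least 1 DN list. Of 8 T cell markers, 6 had a region of both DP lists and 1 of all lists. The DP markers Cd8a (0, 0, 650 and 700 bp) and Cd4 (0, 0, 0 and 500 bp) were not members, nor were the CD25+ DN markers Il2ra (650, 0, 0 and 700 bp) and Ptcra (500, 0, 0 and 600 bp). Il2ra encodes CD25, on which the DN cells were sorted, and DN 2 had no peak at its ends.

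T cell genes that did have a region included the recombinase genes. Rag1 was covered over 600 and 550 bp in DN and 850 and 800 bp in DP, and Rag2 over 550 and 600 bp in DN and 800 and 1100 bp in DP. Both stages carry out receptor gene rearrangement, and the DP values were higher at both genes. Of 20 genes of the DP stage, 6 (30%) had a region; Themis, needed for positive selection, had 550 bp in both DN lists and 750 and 850 bp in DP. Of 22 T cell receptor signalling genes 4 (18.2%) had a region, while 13 had one of DN 1 and 6 one of DN 2. Plcg1, the phospholipase downstream of the receptor, had 600 bp in both DN lists and 950 and 1050 bp in DP. CD25+ DN stage genes had 2 of 20 (10%), among them Kit, the stem cell factor receptor, with 600, 550, 700 and 700 bp.

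Genes of other cell types were counted as a check on the sorts. Myeloid genes had 0 of 14, B cell genes 2 of 12, NK cell genes 1 of 12, erythroid genes 1 of 10, stromal genes 1 of 12, neuronal genes 1 of 12 and olfactory receptors 2 of 1106 (0.181%). Of the fixed markers, none of 6 myeloid, 6 NK or 6 stromal markers had a region of all lists, and 1 of 6 B cell markers did (Ebf1, midpoint 874 bp from the gene end). Some lists held a peak at a marker without a region of all lists. In DN 1, DN 2, DP 1 and DP 2 the peaks covered 550, 550, 450 and 0 bp at the myeloid marker Cebpa. At the NK markers they covered 550, 450, 0 and 500 bp (Gzma) and 0, 0, 600 and 650 bp (Prf1). No list had a peak at a stromal marker. A peak near a gene is not its expression, and the part of other cells in these lists was not tested.

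Genes with a gene-end region of both DP lists more often had one in DN too where genes were sparse. Genes with a gene-end region of both DP lists were grouped by the number of other protein-coding genes within 500 kb. With 0 to 2 neighbours, 79.9% of 358 genes had a region of all 4 lists. The share was 63.3% with 6 to 10 neighbours, 40.1% with 16 to 20, 32.7% with 41 to 60 and 19.2% of 73 genes with 61 or more. It thus fell with each step from gene-poor to gene-dense surroundings. The grouping by neighbours was added after seeing the data. In DN 1 alone the share fell from 92.5 to 58.9% over the same bins, and in DN 2 alone from 82.1 to 21.9%. Both DN lists thus went the same way, and DN 2 further. Starting from genes with a region of both DN lists, 76.1% with 0 to 2 neighbours and 96.6% with 41 to 60 had a region of all 4 lists. Over all genes outside olfactory and vomeronasal receptor genes it was 25.5% with 0 to 2 neighbours, 33.4% with 3 to 5 and 15.7% with 41 to 60.

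Outside gene ends the share also ended lower than it began, but not at each step. Among distal regions of both DP lists it was 36.6% with 0 to 2 neighbouring genes, 37.7% with 3 to 5, 16.8% with 21 to 30, 19.5% with 31 to 40 and 15.4% of 26 regions with 61 or more. The median number of genes within 500 kb was 11 for the gene-end regions of all lists and 21 for those of both DP lists and neither DN list. By chromosome, 185 of 1609 genes (11.5%) on chromosome 11 and 269 of 829 (32.4%) on chromosome 13 had a region of all lists, the lowest and highest shares. These were 27.3 and 68.6% of their genes with a region of both DP lists, and the median gene had 23 and 10 neighbours. The order over chromosomes did not follow the neighbours throughout: chromosome 7, with a median of 27, had 54.3%, and chromosome 9, with a median of 16, had 42.5%.

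**Figure D4:**
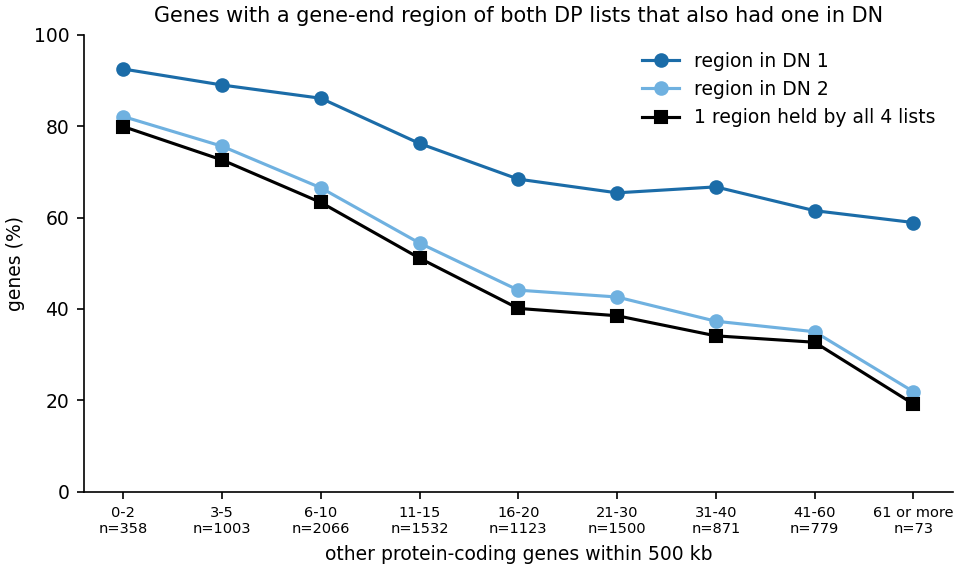
Genes with a gene-end region of both DP lists: percent with 1 region held by all 4 lists, with a region of DN 1 or with a region of DN 2 (y axis). The x axis gives the number of other protein-coding genes within 500 kb, binned. The share for all 4 lists falls from 79.9% with 0 to 2 neighbours to 19.2% with 61 or more.

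The members' peaks in DN also changed along this scale while those in DP changed less. With 0 to 2 neighbours the median region was covered over 800, 700, 850 and 900 bp and ranked at 76.6, 75.5, 63.7 and 64.3 in DN 1, DN 2, DP 1 and DP 2. With 41 to 60 neighbours it was covered over 650, 500, 800 and 800 bp and ranked at 44.0, 36.6, 66.2 and 82.9. Both DN ranks lay above both DP ranks in the first of these bins and below them in the second. With 3 to 5 neighbours the ranks were 73.0, 73.2, 66.2 and 82.9, so DP 2 was already highest there. The ranks depend on the treatment of ties described above. Genes with a region of all lists were also longer, with a median span of 25 kb against 20 kb for genes with a region of both DP lists and none of all lists.

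The promoter sequence was not used in choosing the regions. RefSeq promoter windows ran from 250 bases before to 50 after the start. They were matched by gene identifier for 84.5% of the genes with a region, leaving out chromosome 18, for which no sequence was used. In all, 3994 windows of 3577 genes overlapped one of the regions. Their median GC content was 62.0%, and 79.0% were CpG-rich, meaning at least 50% GC and a CpG observed over expected ratio of at least 0.6. In windows of genes with no region at either end 16.5% were CpG-rich, and in all 21020 windows 45.6%. Windows of DP regions without a DN peak were as rich, at 77.7%, so CpG content differed between windows with and without a region and little between these classes of regions. By CpG count, 0.458% of windows with 0 to 2 CpGs and 36.5% of those with 21 to 25 overlapped a region of all lists, and 21.7% of those with 41 or more.

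Most motifs of general promoters showed the same pattern. Words were searched on both strands and may overlap, as SP/KLF and CTCF words can and ETS and YY1 words can. The ETS word CCGGAAG was in 22.2% of the windows at regions of all lists, 22.6% of those at DP regions without a DN peak, 3.12% of windows with no region and 11.7% of all windows. The SP/KLF word GGGCGG was in 71.2, 67.7, 25 and 46.6%, in the same order. The NRF1 word GCGCATGC was in 5.96, 6.96, 1.21 and 3.54%, and the YY1 word AAGATGGCG in 3.46, 4.57, 0.276 and 1.84%. Over all windows, each of these words was more frequent at promoters of all lists and of DP alone than at those without a region. The shares differed little between these 2 classes. Over all windows, the 103 at regions of both DN lists and neither DP list were unlike the 2 classes. They had the ETS word in 5.83%, GGGCGG in 48.5%, the NRF1 word in 1.94% and the YY1 word in 0%. Of these 103 windows 44.7% were CpG-rich, against 79.0% at regions of all lists and 77.7% at DP alone, so they differed in CpG content too. The CRE word TGACGTCA was in 4.48% of windows at regions of all lists, 3.91% at DP alone, 0.943% with no region and 2.26% of all windows. In the same order, the E-box CACGTG was in 10.2, 11.1, 4.97 and 7.91% and the ZBTB33 word CTCGCGAG in 2.78, 2.59, 0.314 and 1.25%. Among CpG-rich windows alone, the E-box was in 11.1% at regions of all lists and 10.2% with no region.

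Over all windows, the TATA word and the words of lineage factors went the other way. The TATA word TATAAA was in 6.01% of the windows at regions of all lists, 19.2% of those with no region and 12.7% of all windows. The RUNX word TGTGGTT was in 3.28, 6.04 and 4.73%, the TCF word TTCAAAG in 3.05, 5.84 and 4.55% and the GATA word AGATAA in 4.63, 13.9 and 9.69%. Each of these words holds more A and T than G and C, and the windows with no region had a lower median GC content of 50.3%. Among CpG-rich windows alone, the TATA word was in 4.72% at regions of all lists and 4.74% with no region, so these shares were close. The GATA word was in 3.14 and 3.99%. The RUNX word was in 2.85 and 2.08% and the TCF word in 2.66 and 1.73%, so both turned there. In the other windows all of these words kept the direction. There the TATA word was in 10.9 and 22.1% and the RUNX word in 4.89 and 6.82%. The TCF word was in 4.53 and 6.65% and the GATA word in 10.3 and 15.9%. Of TATA matches, 29.7% at regions of all lists and 45.8% in windows with no region lay within 100 bp upstream of the start. The median ETS match at regions of all lists lay 41 bp before the start, and the median YY1 match 11.5 bp after it. The CTCF word CAGGGGGCG, rich in G and C, was in 3.86, 0.943 and 2.29%.

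CCAAT boxes, the words that NF-Y recognises, were more frequent at promoters of all lists than at those of DP alone. A box on either strand was in 48.4% of the windows at regions of all lists and in 28.2% of those at DP regions without a DN peak. Windows at regions of both DP lists and DN 1 but not DN 2 lay between, at 38.6%, and those with no region had 37.9%, near the 38.5% of all windows. With 3 or more boxes the shares were 10.4, 1.78, 4.82, 1.97 and 3.92% in the same order. Among regions that both DP lists held, those held by more DN lists thus had boxes more often. Of the 103 windows at regions of both DN lists and neither DP list, 28.2% had a box, as in the class of DP alone. The ZNF143 word ACTACAANT was the other word with a difference of about that proportion, at 4.41% against 2.24%, with 0.857% in windows with no region and 1.98% in all windows. Counts of boxes beyond the first were added after seeing the data. When DN 2 was left out, 45.5% of the windows at regions of the remaining lists had a box.

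The difference in CCAAT boxes was present in each subset counted. In surroundings with up to 10 genes within 500 kb, 43.4% of the windows at regions of all lists and 23.5% of those at DP regions without a DN peak had a box. With 11 to 30 genes the shares were 50.5 and 27.1%, and with over 30 genes 61.3 and 33.3%. In CpG-rich windows they were 47.6 and 27.1%, beside 26.5% with no region, and in the others 51.3 and 31.7%, beside 40.1%. The share at regions of all lists was therefore higher than that at DP alone within each range of gene density. Separately, it was higher within each CpG class. Gene density and CpG content were not held alike together, nor was the strength of the peaks. The class of DP alone lay near the windows with no region among CpG-rich windows and below them among the others. In gene-dense surroundings, where regions of all lists were fewest, 25.4% of their windows had 3 or more boxes against 2.76%.

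**Figure D5:**
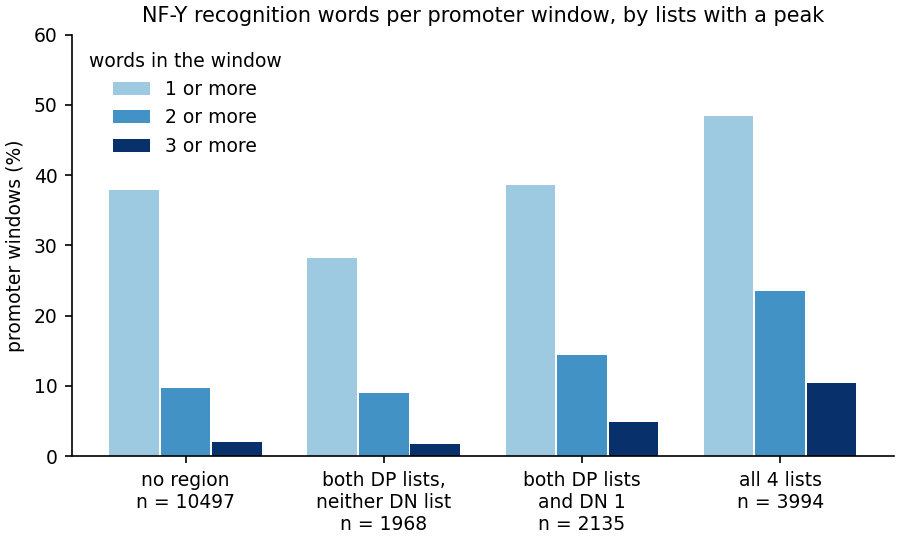
Percent of promoter windows (y axis) with 1 or more, 2 or more and 3 or more CCAAT boxes (bars), by the lists that held a region at the promoter (x axis), with the number of windows under each class. Windows at regions of all 4 lists have 3 or more boxes in 10.4% of cases and those at DP regions without a DN peak in 1.78%.

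Replication-dependent histone genes are known for CCAAT boxes. Of the 39 windows of histone genes at regions of all lists, variants such as H2az1 included, 34 (87.2%) had one. The share was near that of histone windows in general, with 82.4% of all 74 and 80.0% of the 15 with no region. Without histone genes, 48.0% of the windows at regions of all lists and 28.1% of those at DP regions without a DN peak had a box. In windows with exactly 2 boxes, the boxes were a median of 50 bp apart at regions of all lists, 43.0 bp at DP regions without a DN peak and 74.0 bp with no region. The median box lay 83 bp before the start at regions of all lists.

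Regions whose promoters had more boxes more often had the smallest p-value, while the median covered bases hardly moved. Among windows with 0, 1, 2 and 3 or more boxes, the smallest p was reached in DP 1 by 39.1, 48.1, 60.6 and 77.3% and in DP 2 by 46.5, 57.5, 71.8 and 82.6%. In DN 1 the shares were 19.3, 28.9, 35.2 and 39.4%, and in DN 2 they were 9.56, 16.1, 21.7 and 20%. The share rose with the number of boxes in all lists except for the last step in DN 2. The median covered bases were 700 bp in DN 1 and 600 bp in DN 2 in each of these classes, 850 bp in DP 1, and in DP 2 900 bp with no box and 850 bp with any. Since several windows can lie at 1 region, the windows are not independent.

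By function, boxes were frequent in replication and chaperone genes among those with a region. A box was in the window of 14 of 18 DNA replication genes and 12 of 17 chaperone genes, beside 50.5% of all 3577 genes. Chaperone genes with 3 or more boxes were Cct7, Hsp90b1, Hspa5, Stip1 and Vbp1, and replication genes with 3 or more were Mcm10, Mcm3, Mcm5 and Rpa2. Cytosolic ribosomal protein genes had a box in 10 of 26, none with 3 or more, and 12 of the 26 had the ETS word. The most boxes in any window was 6, in 10 genes that included Top2a, which encodes topoisomerase II alpha, Ube2c, a mitotic ubiquitin-conjugating enzyme, and Eif2ak3, the endoplasmic reticulum stress kinase PERK.

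The narrowest and the borderline regions show the limits of the class. At Nr1h4, the bile acid receptor FXR, peaks covered 300, 500, 300 and 300 bp, which is near the minimum peak width of 300 bp. Nearest inside the 1 kb limit were regions at Ascl4 and Trim41, both 998.5 bp from a gene end, and Epc2, at 995.5 bp. Nearest outside were Il23r at 1006.5 bp and Basp1 and Pnrc1 at 1011.5 bp. The region at Trim41 was covered over 850, 850, 950 and 950 bp and that at Pnrc1 over 650, 700, 850 and 800 bp.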

How the data were processed

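The 4 ATAC-seq peak lists, 1 per sample, were used as the authors deposited them, on mm10. Bowtie2 and Picard are named in the submitters' processing notes, with neither version nor role. File names point to PeakDEck as the caller; what settings it ran with is not given in the sources used here. The deposited lists give chromosome, start, end and a p-value per peak, which was used only to rank and filter. Peaks start on a 50 bp grid and are at least 300 bp wide. Chromosomes Y and M were not analysed here. Groups and replicate numbers came from the labels. Between any pair of lists, 1.32 to 6.25% of peaks (of the shorter) had the same coordinates, so none was deposited again under another label. Depth is unknown, so no interval that needs counts was computed.

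Peaks sharing at least 1 bp were merged. A midpoint within 1000 bp of either end of a protein-coding gene span of the RefSeq table of GRCm38.p6 made a gene-end region. Covered bases and ranks were computed per list, and group differences of the list medians were given a two-sided exact permutation test over the 4 samples. Promoter windows of 300 bases came from the RefSeq promoter table of GRCm38.p6, and strand was taken from it. Same-numbered samples did not deviate together (correlation of 0.0052 in covered bases and -0.0041 in rank over regions). Such a correlation cannot show whether they shared an animal, sort or batch, which the labels do not give. The main tests treated the samples as unpaired. The regions, gene lists, motifs and tests were chosen with earlier results of these data known. Named were the 8 regions of best mean rank, the 6 widest and 4 narrowest, the 6 largest differences between the stages in each direction by covered bases and by rank, the best ranked genes of each list, the marker genes, the best ranked promoter per motif, and the 3 regions nearest the limit on each side. Of these, only some are given in the text. Calculations used Python 3.11.15 with numpy 2.4.6, pandas 2.3.3 and scipy 1.17.1, and figures matplotlib 3.10.9. The scripts were tested on simulated data. Alternatives were the region limit, the merging distance, the share of a region that a peak must cover, list length, the top 50% of each list, the scale of covered bases, the treatment of ties and leaving out each list. A few named genes are not reported here.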

Additional observations from a re-analysis of the deposited data

How the results depend on the processing

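The gene-end share of the shared regions, 51.7%, was 56.7% with the top 50% of each list, 53.7% with each list cut to as many peaks as the shortest has, 47.5 and 56.8% with limits of 500 and 2500 bp, and 46.6 to 49.7% when 1 list was left out. The share at starts was 97.9% with the top 50%, 98.5 and 95% with limits of 500 and 2500 bp, and 96.5 to 97.1% with 1 list left out. The CpG-rich share of promoters was 80.8% with the whole window in the region. The stage difference in covered bases, DN minus DP, was -275 to -125 bp with 1 list left out, and without DN 1 it was -275 bp. Regions at 2 or more genes numbered 666 to 1025 with 1 list left out, and without DN 2 there were 1025. With 1 list left out, gene-end regions numbered 4152 to 6148, the most without DN 2. The NF-Y share was 52.1% where each list covered at least 50% of the region, 50.2% with the top 50% and 45.5% without DN 2. With the replicate block the differences were -175 bp and -16.6 rank points. Their p was 0.5, the smallest that an exact test over 2 pairs can give. In the labels, the samples paired in this way share only a number. The rank difference was -24.1 to -7.31 with 1 list left out and -7.11 with the limit of 2500 bp. The stage differences kept their direction under the alternatives run, but the larger count of regions by covered bases turned from DP (2296 against 91) to DN (1226 against 980) when widths were scaled by each list's median. The lists hold no counts, so a missing or narrow peak cannot be told apart from too few reads, and 2 samples a stage cannot reach an exact p below 0.33.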
